A study of Arabidopsis thaliana with 15 samples.

Results

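Roots of the Arabidopsis thaliana triple mutant grf1/grf2/grf3 were compared with roots of the wild-type ecotype Col-0, and each change was then placed against the second wild type, WS. The comparison takes the 3 arrays titled as the triple mutant and the 3 titled as ecotype Col-0, which are 6 of the 15 arrays of the series. It covers all 22746 probe sets other than the manufacturer's controls. The mutant carries lesions in GRF1, GRF2 and GRF3, and its ecotype label names both Col-0 and WS, so a difference from Col-0 can lie in the mutation or in WS sequence that the mutant inherited. The other groups are P35S:rGRF1 plants, whose ecotype label is Col-0, and P35S:rGRF3 plants, whose label is WS. They express a miR396-resistant GRF1 or GRF3 from the constitutive 35S promoter of cauliflower mosaic virus. Each group has 3 arrays, and every sample was total RNA from roots of plants grown for 2 weeks on modified Knop's medium at 23 °C with 16 h of light and 8 h of dark. Whether the 3 samples of a group came from separate plants or cultures is not given in the sources used here, so each p-value reflects only how these arrays scatter, which may be technical.

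Growth-regulating factors (GRFs) are plant transcription factors that act with GRF-interacting coactivators and promote cell proliferation and organ growth. The microRNA miR396 cleaves the transcripts of most family members, which restricts their activity in older tissue and, in roots, helps to set the boundary between stem cells and dividing cells. Expansins, polysaccharide-modifying enzymes and signalling peptides are among the gene products that shape the growth of root cells.

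Values are log2 of the deposited linear signal, and a gene is given by its brightest probe set. A gene counts as measured where the annotation pairs a probe set with that gene alone, so other genes may also be on the array. A probe set counts as changed at an adjusted p under 0.05 in limma with Benjamini-Hochberg adjustment over all 22746. No probe set was named for a GRF gene in the annotation used, so the targeted genes were not analysed here and the mutant label could not be checked against them. Of the 24 root tissue markers listed, 2 had a named probe set: the root hair expansin genes EXPA7 and EXPA18, which read 9.23 to 9.57 and 9.24 to 9.39 in the mutant, above the 40th percentile of signal (6.84). The defining shoot markers of the RBCS family had no named probe set. Of 39 shoot markers 7 were found, all above the same percentile, with a summed level of 11.06 to 11.78 in the mutant, 11.93 to 12.14 in WS and 11.23 to 12.06 in Col-0. One of these 7, LHCB4.2, was lower in the mutant, and the part of other tissue in the results was not tested.

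Some controls moved with the genotype. The hybridization controls, which are spiked in after RNA preparation, read 10.72 to 10.81 in the mutant, 10.85 to 11.2 in WS and 9.68 to 10.003 in Col-0. The mutant arrays thus overlapped with neither wild type, and were closer to WS. The 3′ minus 5′ signal of the poly-A controls was 1.80 to 1.81 in the mutant, 1.595 to 2.24 in WS and 1.16 to 1.44 in Col-0. In P35S:rGRF1 and P35S:rGRF3 the hybridization controls read 10.07 to 10.18 and 9.69 to 10.33, below the mutant and WS. The poly-A measure read 1.25 to 1.65 and 1.22 to 1.76 in these groups, which overlapped with WS. Array handling and genotype cannot be told apart between the mutant and Col-0. The same limit holds where WS sits with the mutant and the P35S arrays sit with Col-0.

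The ecotype labels were checked with the 225 probe sets that differed 8-fold or more between WS and Col-0. In the mutant all 3 arrays lay on the WS side of the midpoint for 186 of these, on the Col-0 side for 11, and on both sides for 28. The P35S:rGRF3 arrays, labelled WS, lay on the Col-0 side for 201 and on the WS side for 8. The P35S:rGRF3 arrays therefore go against their ecotype label at these probe sets, and the library labelled P35S:rGRF3 is used below only as a further set of values. The fit used all 15 arrays to estimate the spread. Without the 3 P35S:rGRF3 arrays it gave 7336 changed probe sets between the mutant and Col-0, against 6949 with them.

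Between the mutant and Col-0, 6949 of 22746 probe sets changed (30.6%), 4039 of them higher in the mutant (17.8%) and 2910 lower (12.8%). The mutant and Col-0 arrays did not overlap in 6651 of the 6949 (29.2% of all probe sets), while 42.6% of all probe sets had no overlap whether called or not. Large changes in signal were mostly decreases in the mutant. Of 2433 that reached 2-fold, 958 were higher and 1475 lower. Of 833 that reached 4-fold, 186 were higher and 647 lower. Whether sequence differences between WS and Col-0 under the probes altered the signal was not tested. With a null hypothesis of a 1.5-fold change, 541 probe sets were higher and 889 lower, so that the share of increases was 37.8% in place of 58.1%. The median difference over all probe sets was 0.06.

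For most changes the WS arrays sat with the mutant. All 3 WS arrays lay on the mutant side of the midpoint between the mutant mean and the Col-0 mean for 4879 of the 6949 changes (70.2%). They lay on the Col-0 side for 685 (9.86%) and on both sides for 1385 (19.9%). Among the 4879, WS itself was called different from Col-0 in the same direction in 4734, and the WS mean lay beyond the mutant mean in 3098. Among the 685, the mutant was called different from WS in the same direction in 475. The 3 contrasts share arrays: mutant minus Col-0 and WS minus Col-0 share the Col-0 arrays, and mutant minus WS shares arrays with both.

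**Figure D1:**
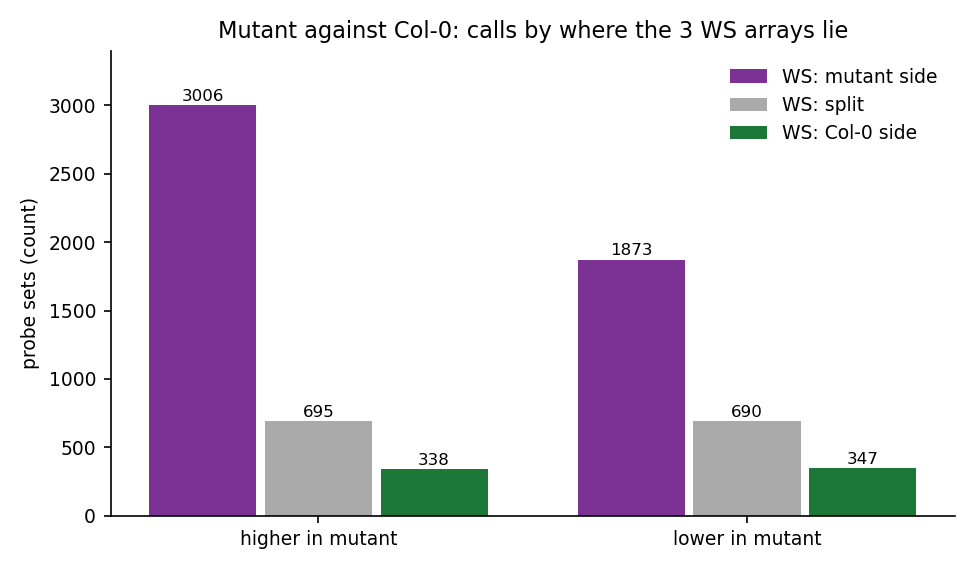
Bars count the probe sets called between the mutant and Col-0 (adjusted p under 0.05), on the y axis, by direction and by the side of the midpoint on which all 3 WS arrays lie; split means WS arrays on both sides. WS was on the mutant side for 3006 of the increases and 1873 of the decreases, and on the Col-0 side for 338 and 347.

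Direct tests give the size of each contrast. The mutant differed from WS at 1727 probe sets (7.59%), 928 higher (4.08%) and 799 lower (3.51%). WS differed from Col-0 at 8061 (35.4%), 4665 higher in WS (20.5%) and 3396 lower (14.9%). Over named genes, 6.3% differed between the mutant and WS and 32.8% between WS and Col-0. A change against both wild types in the same direction was found for 625 probe sets (2.75%), 297 higher in the mutant and 328 lower. Leaving out 1 array at a time gave 387 (without WS replicate 3) to 932 (without Col-0 replicate 1) such changes.

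On a scale with the Col-0 mean at 0 and the mutant mean at 1, the median WS position over the 6949 changes was 0.96. It was 1.09 over the changes with WS on the mutant side and -0.0012 over those with WS on the Col-0 side, values that the rule for the sides fixes in part. The P35S:rGRF1 arrays were all on the Col-0 side for 618 of the 685 Col-0-side changes (90.2%) and for 2906 of the 4879 mutant-side changes (59.6%). They were all on the mutant side for 552 of the 4879 (11.3%). These placements use the same Col-0 arrays as the calls and are given as a description.

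**Figure D2:**
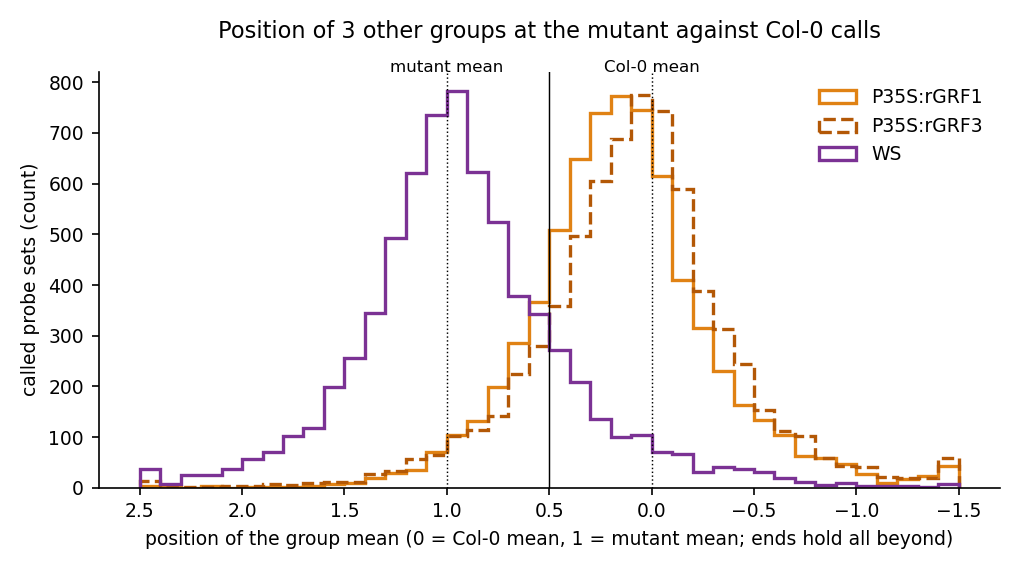
Histogram of the position of each group mean at the 6949 called probe sets (x axis, mutant mean at 1 on the left and Col-0 mean at 0 on the right, end bins hold all values beyond; y axis, number of probe sets). The WS means cluster around the mutant mean, with a median of 0.96, and the P35S:rGRF1 and P35S:rGRF3 means cluster near the Col-0 mean.

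Genes that were higher in the mutant, with all WS arrays on the Col-0 side of the midpoint, included an expansin-like gene, a CLE peptide gene and a nitrate transporter family gene. EXLA2 (AT4G38400), a member of the expansin-like A branch of the wall-loosening expansins, read 7.76, 7.75 and 7.86 in the mutant, 6.05, 6.83 and 6.89 in WS, and 6.28, 6.25 and 5.81 in Col-0. All 3 mutant arrays were above all WS and Col-0 arrays. The difference was 1.68 against Col-0 (SE 0.26, adjusted p = 0.000115) and 1.198 against WS (adjusted p = 0.00895), a 3.2-fold signal over Col-0.

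CLE26 (AT1G69970) encodes a small secreted CLE signalling peptide, a class of peptide ligands read by receptor kinases. Its signal was 8.69, 8.16 and 8.69 in the mutant, 7.22, 6.999 and 6.37 in WS, and 7.53, 7.08 and 6.803 in Col-0. The mutant arrays lay above both wild types, by 1.37 over Col-0 (SE 0.27, adjusted p = 0.000939) and by 1.65 over WS (adjusted p = 0.00133). Adding the poly-A 3′ minus 5′ signal to the fit brought the excess over Col-0 to 0.91 (adjusted p = 0.0729).

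AT3G21670, which the reference table lists as NRT1/PTR family 6.4 of the nitrate and peptide transporters, read 10.12, 10.22 and 10.12 in the mutant, 7.06, 7.23 and 6.69 in WS, and 9.84, 8.57 and 8.10 in Col-0. The order was mutant above Col-0 above WS with no overlap. The mutant exceeded Col-0 by 1.32 (SE 0.34, adjusted p = 0.00784) and WS by 3.16 (adjusted p = 7.31e-05). Col-0 replicate 1 stood close to the mutant, and the call against Col-0 was lost with the poly-A covariate (adjusted p = 0.079). The high-affinity nitrate transporter gene NRT2.5 also read above WS, by 3.57 (adjusted p = 0.000165), but its 10.46 to 10.91 in the mutant overlapped with 9.31 to 11.56 in Col-0, a difference of 0.23 (adjusted p = 0.745).

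The other increases named in this class carry only a locus identifier in the tables. AT5G38710 read 9.87, 9.98 and 10.26 in the mutant, 7.62, 7.41 and 8.06 in WS, and 8.81, 8.48 and 8.53 in Col-0. WS was below Col-0 here by 0.91 (adjusted p = 0.00223), so the mutant and WS differed from Col-0 in opposite directions. AT2G44300 was higher by 1.29 against Col-0 and by 0.75 against WS (adjusted p = 0.000292 and 0.0476). AT5G04120 was higher by 1.22 against Col-0 (adjusted p = 0.0201), with Col-0 arrays from 10.69 to 12.25 and mutant arrays from 12.51 to 12.82. This last call was lost without mutant replicate 2, Col-0 replicate 2 or Col-0 replicate 3.

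Decreases in the mutant with WS on the Col-0 side were larger. BCAT4 (AT3G19710), the aminotransferase that starts the methionine chain elongation of aliphatic glucosinolates, read 5.86, 7.29 and 6.81 in the mutant, 10.30, 9.87 and 10.25 in WS, and 8.81, 10.28 and 10.39 in Col-0. Every mutant array was below every wild-type array. The mutant was lower than Col-0 by 9.03-fold (log2 difference -3.17, SE 0.54, adjusted p = 0.000322), and the difference from WS was -3.49 (adjusted p = 0.00108). BCAT4 read 11.96 to 12.10 in P35S:rGRF1 and 8.36 to 11.24 in P35S:rGRF3.

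GSTU20, a glutathione transferase gene linked to glucosinolate synthesis, read 7.43, 8.27 and 7.95 in the mutant, 8.89, 8.62 and 8.95 in WS, and 8.91, 9.14 and 9.19 in Col-0. The mutant was below both without overlap, by -1.20 against Col-0 (adjusted p = 0.00108) and -0.94 against WS (adjusted p = 0.0229). UGT74B1, the glucosyltransferase of the glucosinolate core pathway, differed from Col-0 by -0.58 with WS on the mutant side. Of 8 glucosinolate genes measured these 3 were lower, none was higher and 5 did not pass the test. The list median was -0.44, against 0.05 over all 13356 genes measured, of which 28.4% changed.

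Of 6 metal transporter genes 2 changed (33.3%), near the 28.4% of all genes, and both had WS on the Col-0 side. MTPA1, a metal tolerance protein of the cation efflux family, read 1.98, 4.67 and 2.24 in the mutant, 6.56, 5.88 and 7.24 in WS, and 6.51, 7.19 and 6.55 in Col-0. ZIP9, a ZIP-family metal transporter, read 6.72, 8.09 and 7.23 in the mutant, 8.61, 8.47 and 9.22 in WS, and 8.70, 8.40 and 8.55 in Col-0. In both genes the mutant arrays lay below all wild-type arrays, by -3.78 for MTPA1 (adjusted p = 5.87e-05) and by -1.21 for ZIP9 (adjusted p = 0.00311) against Col-0. ZIP9 read 9.49 to 10.10 in P35S:rGRF1 and 10.74 to 11.13 in P35S:rGRF3, above its level in the mutant, WS and Col-0. MTPA1 read 8.41 to 9.56 in P35S:rGRF1 and 9.85 to 10.01 in P35S:rGRF3. The mutant signal of MTPA1 was near the bottom of the scale, and with 16 added to every signal its difference was -2.26.

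The largest decrease in this class among genes known by locus only was that of AT1G33055 when ranked after adding 16 to the signal. It read 6.72, 5.40 and 6.21 in the mutant, 8.86, 8.22 and 8.35 in WS, and 8.83, 9.80 and 9.94 in Col-0. The mutant was below both wild types, with differences of -3.41 (adjusted p = 5.53e-07) from Col-0 and -2.37 (adjusted p = 0.000294) from WS. AT5G48430 followed the same order, at 8.42 to 9.06 in the mutant, 10.86 to 11.01 in WS and 10.94 to 12.07 in Col-0. AT1G56680 read 2.64 to 5.16 in the mutant, 6.30 to 7.01 in WS and 7.51 to 7.86 in Col-0. For these 3 genes the WS mean was also below the Col-0 mean, with differences of -1.04 to -0.69. WS was called lower than Col-0 for AT1G33055 and AT5G48430 (adjusted p = 0.014 and 0.032) but not for AT1G56680 (adjusted p = 0.0694).

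The loci AT4G39675 and AT1G49500, were lower in the mutant than in either wild type although Col-0 replicate 1 stood apart. AT4G39675 read 7.37, 7.12 and 6.79 in the mutant, 10.88, 10.93 and 10.73 in WS, and 8.76, 11.69 and 10.30 in Col-0. AT1G49500 read 7.73, 7.77 and 7.73 in the mutant, 11.56, 10.99 and 11.05 in WS, and 8.80, 11.69 and 11.08 in Col-0. The differences from Col-0 were -3.16 (adjusted p = 0.000352) and -2.78 (adjusted p = 0.0014).

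Col-0 replicate 1 was the Col-0 array nearest to the mutant mean in all 12 genes named with WS on the Col-0 side. Over all 685 such probe sets it was the nearest in 522 (76.2%), against 2056 of the 4879 with WS on the mutant side (42.1%). Without this array 785 probe sets had WS on the Col-0 side and 4681 had WS on the mutant side.

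**Figure D3:**
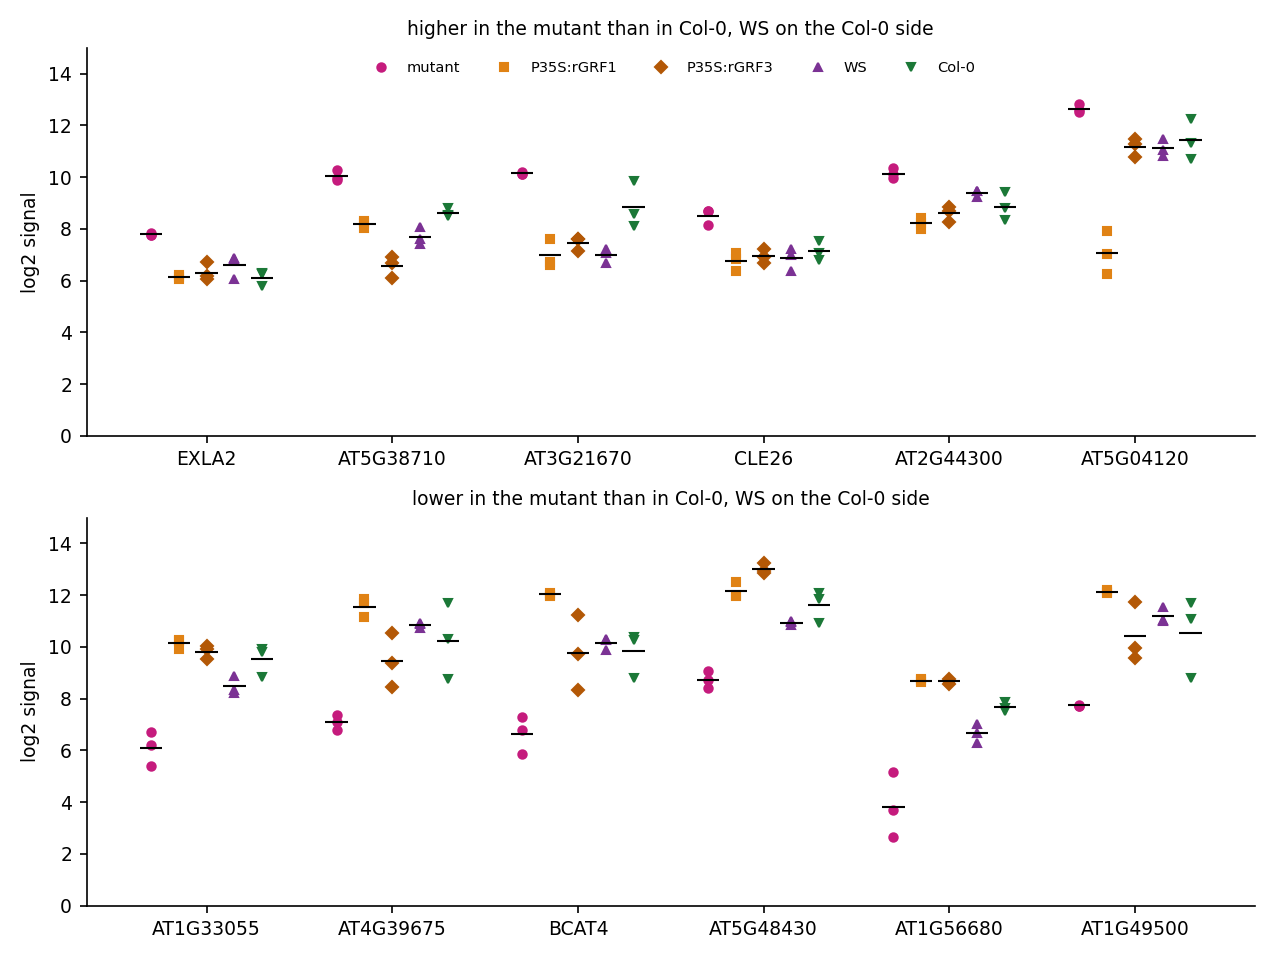
Log2 signal (y axis) of the 12 genes named with WS on the Col-0 side, one point per array and a bar at each group mean (3 arrays), with the groups in the order mutant, P35S:rGRF1, P35S:rGRF3, WS and Col-0. The rule for naming required mutant arrays apart from the Col-0 arrays and every WS array on the Col-0 side of the midpoint. The mutant arrays also lie apart from the WS arrays in every gene shown, which that rule favours. In BCAT4 the mutant arrays span 5.86 to 7.29 and the Col-0 arrays span 8.81 to 10.39.

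The genes named with WS on the mutant side were picked for large changes. Over all calls the median size of the difference was 0.80 for those with WS on the mutant side and 0.85 for those with WS on the Col-0 side. AT1G26390 read 2.96, 4.61 and 4.43 in the mutant, 0.61, 2.72 and 1.44 in WS, and 12.35, 12.36 and 13.22 in Col-0. AT1G26380 read 4.82, 4.95 and 4.95 in the mutant, 5.02, 4.87 and 4.26 in WS, and 12.25, 12.35 and 12.83 in Col-0. AT1G26410 read 0.92, 0.40 and 0.51 in the mutant, 1.40, 1.26 and 1.01 in WS, and 10.91, 10.55 and 11.42 in Col-0. The mutant and WS arrays were all near the bottom of the scale in these 3 genes while all 3 Col-0 arrays were bright. Differences between the mutant and Col-0 were -8.64, -7.57 and -10.35, and -7.60, -6.96 and -6.84 after adding 16 to each signal.

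These 3 genes belong to 5 protein-coding genes that follow each other directly on chromosome 1 in the TAIR10.1 gene order, from AT1G26380 to AT1G26420. All 5 were lower in the mutant than in Col-0. AT1G26420 differed by -5.90 (adjusted p = 4.06e-05), and AT1G26400, the dimmest in Col-0 at 4.99 to 6.15, by -3.21 (adjusted p = 0.0491). None of the 5 was lower in the mutant than in WS by the test, and AT1G26390 was higher, by 2.41 (adjusted p = 0.00312). Similar sequences in neighbouring genes can share signal through cross-hybridization, which was not tested.

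The next neighbours of the named genes were compared in the same gene order. For the 12 genes with WS on the mutant side, 14 of 24 neighbouring places were measured and 9 of the 14 had changed in the same direction, 5 of them within the run on chromosome 1 just described. In that run AT1G26380 and AT1G26390, themselves named for large decreases, were counted as neighbours of each other. AT1G26400 was counted both after AT1G26390 and before AT1G26410, so these places are not separate genes. Over all genes 16.3% were higher and 12.2% lower. AT3G28310 and AT3G28330, on either side of AT3G28320, were higher by 5.95 and 1.39. AT5G38900, next to AT5G38910, was lower, with a difference of -3.57. For the 12 genes with WS on the Col-0 side, 14 of 24 neighbours were measured and 1 had changed in the same direction. No test of this difference was made, since the genes were chosen for their size of change.

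Among the increases with WS on the mutant side, AT3G28320 read 10.04, 9.996 and 10.25 in the mutant, 8.72, 8.99 and 8.43 in WS, and 2.09, 2.67 and 4.91 in Col-0. AT2G15560 read 11.47, 10.70 and 11.39 in the mutant, 10.70, 11.70 and 11.60 in WS, and 5.75, 5.79 and 6.22 in Col-0. The mutant overlapped with WS in AT2G15560 (difference -0.15, adjusted p = 0.83) and stood above every Col-0 array by 5.27 in the mean (adjusted p = 9.95e-10). AT1G48800, AT5G15360, AT3G29410 and AT1G50290 were higher in the mutant than in Col-0 by 6.56, 5.84, 3.62 and 3.74. Of these 4, AT1G50290 was called between the mutant and WS, at -0.68 (adjusted p = 0.0233). The other named decreases were those of AT3G55790, AT5G38910 and AT2G04800, with differences of -8.99, -6.51 and -6.40 from Col-0 and none called against WS.

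**Figure D4:**
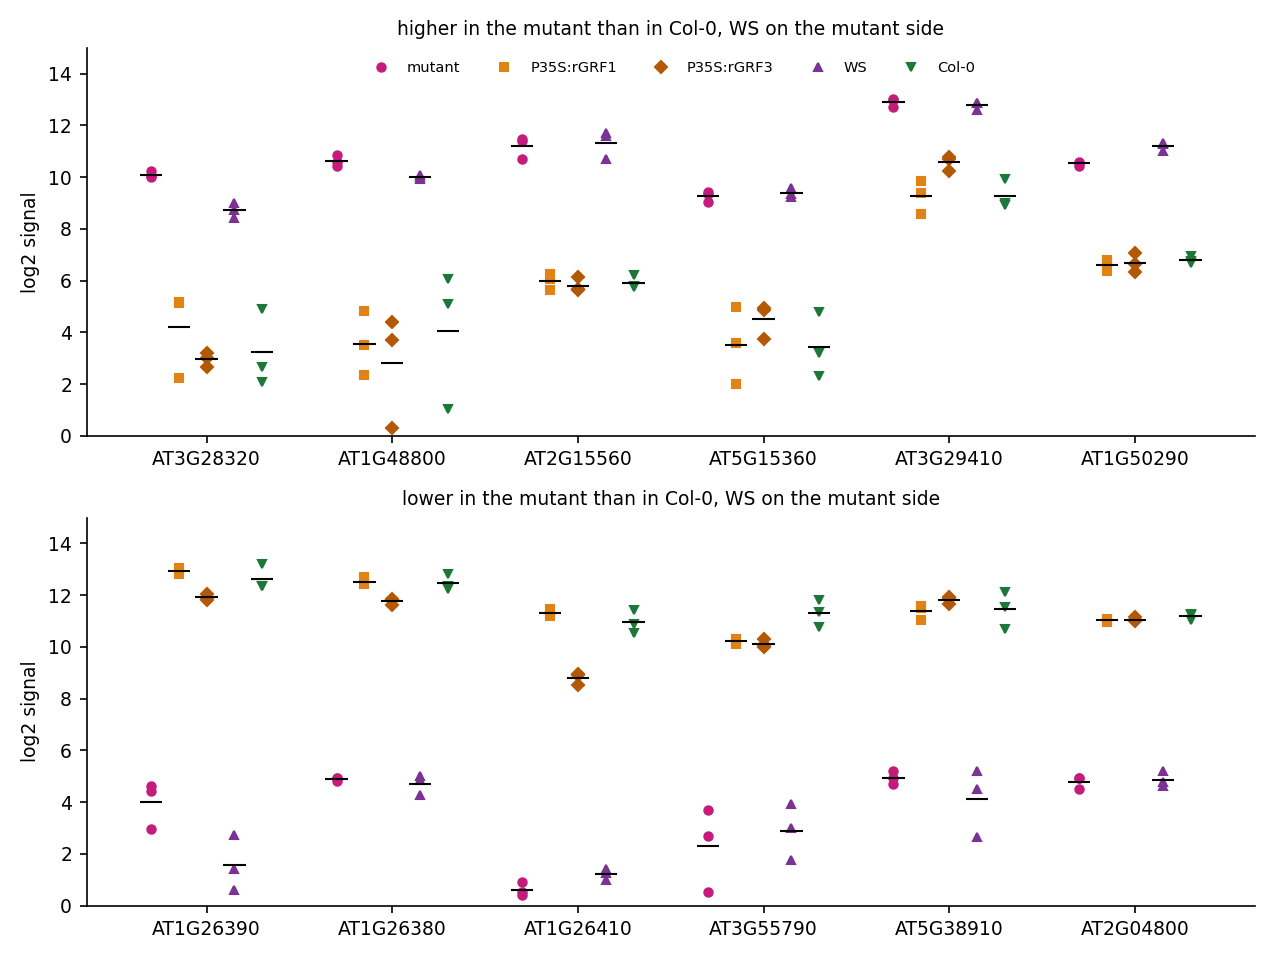
Log2 signal (y axis) of the 12 genes named with WS on the mutant side, one point per array and a bar at each group mean (3 arrays), with the groups in the order mutant, P35S:rGRF1, P35S:rGRF3, WS and Col-0. The mutant and WS arrays overlap in 7 of the 12 genes and not in the other 5, which include AT3G28320 and AT1G26390. In AT1G26380 they lie at 4.82 to 4.95 in the mutant and 4.26 to 5.02 in WS, with the other groups far above, at 12.44 to 12.69 in P35S:rGRF1, 11.64 to 11.86 in P35S:rGRF3 and 12.25 to 12.83 in Col-0.

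Of the 1385 changes with WS arrays on both sides, 105 were called in the same direction between the mutant and WS and 469 between WS and Col-0. The 4 genes named here, picked for large changes, were called in all 3 contrasts. AT1G36640 read 4.51, 4.68 and 3.74 in the mutant, 6.75, 7.05 and 7.05 in WS, and 9.64, 9.96 and 9.70 in Col-0. The 3 groups did not overlap, and the mutant differed from WS by -2.64 (adjusted p = 2.03e-06) and from Col-0 by -5.46 (adjusted p = 1.7e-11). AT5G37450 was lower in the mutant by a like amount, -5.46 against Col-0 and -2.94 against WS, with mutant arrays from 0.89 to 4.75. AT5G38020 read 13.30 to 13.62 in the mutant, 12.09 to 12.43 in WS and 11.04 to 11.44 in Col-0, and AT1G66800 read 11.64 to 11.95, 10.29 to 10.86 and 9.23 to 9.90 in the same 3 groups. Both were higher in the mutant than in either wild type, by 2.19 and 2.33 against Col-0 and by 1.13 and 1.204 against WS.

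Expansins, wall proteins that loosen the cellulose network, moved in both directions. Of 18 expansin genes measured, 5 were higher and 6 lower in the mutant (61.1% changed, against 28.4% of all genes). WS was on the Col-0 side for 4 of the 5 increases, EXLA2, EXPA15, EXPA8 and EXPB3, and split for EXPB1. WS was on the mutant side for 4 of the 6 decreases, EXLA3, EXLA1, EXPA18 and EXPA7. EXPA15 read 12.82, 12.42 and 12.07 in the mutant, 11.28, 11.31 and 11.49 in WS, and 12.06, 11.50 and 11.18 in Col-0. The lowest mutant array was just above the highest Col-0 array, and the differences were 0.86 against Col-0 (adjusted p = 0.00611) and 1.08 against WS (adjusted p = 0.00574).

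Against WS, 6 expansin genes were higher in the mutant (3.46% of all genes were) and none was lower. EXPA8 read 8.61, 8.25 and 8.46 in the mutant, 7.24, 7.15 and 7.22 in WS, and 8.10, 7.52 and 7.20 in Col-0. The median difference over the 18 genes was 0.18 against Col-0 and 0.54 against WS, beside 0.05 and -0.01 over all genes. The root hair genes EXPA18 and EXPA7 differed from Col-0 by -0.61 and -0.46 (adjusted p = 0.00849 and 0.0419). The highest mutant array and the lowest Col-0 array of EXPA7 both read 9.57. In whole roots, fewer root hair cells and less RNA per cell cannot be told apart.

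Other wall families changed in smaller numbers. Of 22 trichome birefringence-like (TBL) genes, many of which encode acetyltransferases of wall polysaccharides, 6 were higher in the mutant and none lower, against 16.3% higher and 12.2% lower over all genes. TBL36 and TBL38 had WS on the Col-0 side, while TBL25, TBL32 and TBL39 had it on the mutant side. TBL45 read 9.85, 9.70 and 9.75 in the mutant, 8.60, 8.995 and 9.10 in WS, and 8.35, 8.34 and 7.59 in Col-0, so that all mutant arrays were above both wild types. Of 15 GH9 endoglucanase genes, which cleave beta-glucans in the wall, 4 were higher and none lower, with GH9B8 (0.67) on the Col-0 side, GH9B13 (0.57) on the mutant side and GH9C2 (0.89) and the dim GH9B11 split. Of 11 RALF peptide genes 1 was higher and 1 lower. The TBL, GH9 and RALF lists were chosen after values were seen, so their counts are a description only. Of 9 xyloglucan endotransglucosylase genes 1 was higher and 2 lower, and of 9 cellulose synthase and related genes 2 were higher and 1 lower. CSLC5 (0.99) and CSLC04 (-1.51), of the xyloglucan backbone synthase branch, both had WS on the mutant side. XTH21 read 7.13 to 7.71 in the mutant, 8.95 to 9.68 in WS and 7.95 to 8.25 in Col-0, below Col-0 by -0.61 (adjusted p = 0.0229) and below WS by -1.74 (adjusted p = 7.31e-05).

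Of 69 plastid-encoded genes measured, 12 were higher (17.4%) and 14 lower (20.3%) in the mutant than in Col-0, against 16.3% higher and 12.2% lower over all genes. WS was on the mutant side for all 12 increases, as it was for 1630 of 2174 increases over all genes. The 12 included the RNA polymerase subunit gene rpoC2 (2.101), the ribosomal protein genes rpl20 (1.76) and rps4 (1.59) and the cytochrome f gene petA (1.47). Of the 14 decreases WS was on the Col-0 side for 8, split for 4 and on the mutant side for 2, the NADH dehydrogenase-like subunit genes ndhA (-3.02) and ndhI (-2.71). The photosystem II genes psbM, psbC, psbE, psbL and psbF were among the 8. Another photosystem II gene, psbA, went the other way. It was higher in the mutant than in Col-0 by 0.98 (adjusted p = 0.0103), with WS on the mutant side. psbM read 11.28, 9.80 and 10.15 in the mutant, 11.37, 11.26 and 11.45 in WS, and 12.10, 12.59 and 11.48 in Col-0. Every mutant array was below every Col-0 array (-1.64, adjusted p = 0.000595), while the highest mutant array reached the WS range (-0.95 against WS, adjusted p = 0.0686).

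Plastid transcripts moved beside RNA measures whose part was not tested. The 25S ribosomal RNA probe set read 9.77 to 10.81 in the mutant, 11.42 to 11.69 in WS and 11.83 to 12.51 in Col-0. In the direct contrast with WS, 19 plastid-encoded genes were lower in the mutant and none was higher, with a median of -0.69, beside 2.85% lower and a median of -0.01 over all genes. Against Col-0 the median was 0.01. Of 9 nuclear photosynthesis genes, 1 was higher and 1 lower than in Col-0 (22.2% changed, against 28.4% of all genes), and 1 was higher and 4 were lower than in WS. Of 15 mitochondria-encoded genes 4 were higher and 1 lower than in Col-0 (33.3% changed), all with WS on the mutant side. Over all genes WS was on that side for 75.0% of increases and 64.9% of decreases. The 4 mitochondrial increases were led by the cytochrome c maturation gene ccb382 (1.19) and the complex I subunit gene nad4 (1.15).

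Of 24 cytochrome P450 genes, oxidases of secondary metabolism, 1 was higher and 7 lower (33.3% changed, against 28.4% of all genes), and 6 of the 7 decreases had WS on the mutant side, as did 1054 of 1623 decreases over all genes (64.9%). CYP71B26 read 7.20, 7.01 and 6.28 in the mutant, 6.92, 6.69 and 6.77 in WS, and 10.17, 10.10 and 9.63 in Col-0. The mutant overlapped with WS and lay below every Col-0 array, by -3.14 (adjusted p = 8.66e-09). CYP71B6 and CYP71B23 differed by -2.20 and -2.09, and the dim CYP71B24 by -3.40. All 3 decreases among 7 WRKY genes, which encode transcription factors of defence and stress, had WS on the mutant side. They were WRKY53 (-1.56), WRKY22 (-0.80) and WRKY6 (-0.69), with no increase, so that 42.9% of this short list changed. Of 7 annotated class III peroxidase genes 2 were higher and 2 lower (57.1%). AT5G64120 (-4.53) had WS on the mutant side and AT2G41480 (-0.97) had it on the Col-0 side.

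Of 50 UDP-glycosyltransferase genes, which attach sugars to small molecules, 6 were higher and 10 lower, and the 32% that changed was near the 28.4% of all genes. UGT72E3, whose enzyme glucosylates monolignols, was higher with WS on the Col-0 side, at 8.98, 9.52 and 9.19 in the mutant, 8.23, 8.34 and 8.20 in WS, and 7.96 to 8.64 in Col-0 (difference 0.95, adjusted p = 0.000479). UGT71C1 was higher by 0.45 with WS on the same side. None of the 10 decreases had WS on the Col-0 side, where 172 of 1623 decreases over all genes had it (10.6%). Of 14 glutathione transferase genes 1 was higher and 4 lower (35.7% changed), with WS on the Col-0 side for GSTU20 and ATGSTF13.

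Of 15 SWEET sugar transporter genes 3 changed (20.0%, against 28.4% of all genes). SWEET13 was higher by 0.94 and SWEET3 differed by -1.39, both with WS on the Col-0 side, while SWEET2 differed by -1.67 with WS on the mutant side. SWEET2 read 7.82 to 8.22 in the mutant, 6.61 to 7.13 in WS and 9.43 to 10.17 in Col-0, so the mutant lay between the wild types without overlap. Of 8 subtilase genes 2 were higher and 3 lower (62.5% of a short list), among them SBT3.3 (-3.95) with WS on the mutant side. SBT4.12, a subtilisin-like protease gene, was the decrease with WS on the Col-0 side, at 9.66 to 9.93 in the mutant, 11.73 to 12.11 in WS and 10.14 to 11.62 in Col-0.

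**Figure D5:**
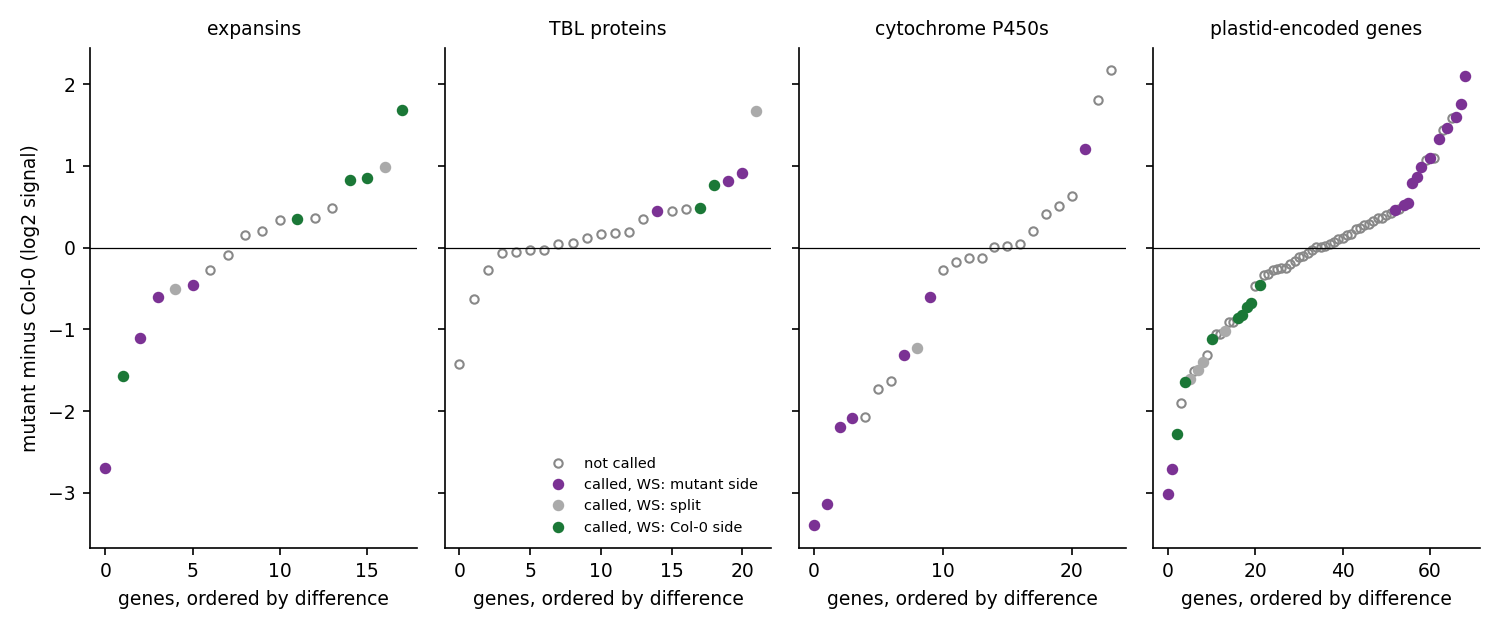
Mutant minus Col-0 difference in log2 signal (y axis) for each measured gene of 4 groups, ordered by difference (x axis), with filled points for called genes coloured by the side on which all 3 WS arrays lie. Called expansin increases are mostly on the Col-0 side, called cytochrome P450 decreases mostly on the mutant side, and the 12 plastid-encoded increases are all on the mutant side.

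In some genes the second wild type lay beyond the pair. For 57 probe sets the WS arrays differed from Col-0 in the direction opposite to the mutant by the test, and 20 of these stood for a named gene. AT3G59340 read 8.79, 8.46 and 8.57 in the mutant, 6.53, 6.79 and 6.56 in WS, and 7.64, 7.77 and 7.63 in Col-0. The mutant was above Col-0 by 0.93 (adjusted p = 0.000204) and above WS by 1.98 (adjusted p = 3.02e-06), and WS was below Col-0 without overlap. For 273 probe sets on the mutant side the mutant differed from WS against the direction of its change from Col-0, which placed the mutant between the wild types. AT3G10930, for example, read 7.97, 8.48 and 9.42 in the mutant, 5.60, 6.05 and 6.39 in WS, and 10.32, 11.32 and 9.32 in Col-0. The mutant was higher than WS by 2.61 (adjusted p = 0.00197) and differed from Col-0 by -1.70 (adjusted p = 0.0083), with 1 mutant array above the lowest Col-0 array. AT3G59340 and AT3G10930 were chosen after their values were seen.

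The changes were spread over all chromosomes. Between 25.4% (chromosome 2) and 31.1% (chromosome 5) of the genes measured on a nuclear chromosome changed, and between 1.95% (chromosome 3) and 2.81% (chromosome 1) had changed with WS on the Col-0 side.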

How the data were processed

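Signals were deposited by the authors as intensity on a linear scale, which MAS5 produced, per the submitters' processing notes (version not given there). The values had no floor and ran from 0.00117 to 32792, so log2 differences of dim probe sets are large and uncertain. Array medians spanned 0.15 on the log2 scale, and no further normalization was applied. No 2 arrays held identical values (highest correlation 0.987). The number of arrays limits the precision.

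The 64 control probe sets were left out. Group means of all 15 arrays were fitted to log2 signal without an offset in limma 3.58.1 under R 4.3.3 (lmFit, then eBayes with its trend option), with two-sided tests, Benjamini-Hochberg adjustment over 22746 probe sets and calls at 0.05. Every adjusted p is from this fit unless a setting is named. The script was tested on simulated data with far fewer changed probe sets than were called here. It called 17.9% of 1.5-fold, 50.7% of 2-fold and 75.8% of 4-fold changes, and 3 of its 99 calls were false. A gene that was not called may therefore still have changed. WS was placed by the midpoint between the mutant and Col-0 means; all 3 arrays had to lie on 1 side.

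Of the probe sets, 13513 pair with 1 gene, 503 with several and 8730 with none in the platform annotation, and 13436 matched TAIR10.1, used for names and gene order only. Of 146 genes with several probe sets, 11 had calls in opposite directions. Named genes were those with 1 gene, a call, no overlap with Col-0 and the brighter mean at or above the 40th percentile, ranked by the difference of log2(signal + 16): 6 a direction for each WS side and 2 a direction for split placements, plus list members. Symbol patterns set the lists, and entries whose name contradicted a list were removed. Comparisons, members and lists were chosen with earlier results of these data known, and the TBL, GH9 and RALF lists after values were seen. Genes that the tables give only by locus carry no role here. Lists with no named gene were not analysed further.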

Additional observations from a re-analysis of the deposited data

Results flagged for a closer look

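Values of array controls outside the comparison differed between the groups. The hybridization controls were higher in the mutant than in Col-0 by 0.92 (10.77 ± 0.05 in the mutant and 9.85 ± 0.16 in Col-0, log2 signal, SD, n = 3 each). The 3′ minus 5′ signal of the poly-A controls was higher by 0.54 (1.81 ± 0.0067 in the mutant and 1.27 ± 0.15 in Col-0). The 25S ribosomal RNA probe set was lower in the mutant, with a difference of -1.93 (10.27 ± 0.52 in the mutant and 12.21 ± 0.35 in Col-0). The part of these differences in the gene results was not tested beyond the poly-A covariate. The P35S:rGRF3 arrays, whose ecotype label is WS, lay on the Col-0 side at 201 of the 225 probe sets used above to check the ecotype labels.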

How the results depend on the processing

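The counts of changed, higher, lower, WS on the Col-0 side, WS on the mutant side and changed against both wild types stayed within 1.5 times their values under a 40th percentile filter, log2(signal + 16), quantile normalization, robust fitting, array weights, the compared groups alone, and, added after seeing the data, the fit without P35S:rGRF3. The exceptions follow. A 60th percentile filter, which tests 9099 probe sets, gave 4133, 2544, 1589, 439 and 2933 for the first 5, and 15 of the 28 named genes were still tested and called. A minimum change of 1.5-fold gave 1430, 541, 889, 92, 1192 and 40 in the same order, and the poly-A covariate gave 4046, 2330, 1716, 295, 3038 and 370. Without the mean-variance trend 406 changed against both. Placing WS by its mean put 1169 on the Col-0 side. Leaving out 1 array at a time gave 5619 to 6967 changed, 3197 to 4015 higher, 2407 to 2952 lower, 456 (without Col-0 replicate 2) to 900 on the Col-0 side, 4127 to 5274 on the mutant side, 387 to 932 against both and 27 to 28 named genes. The causes were not tested. The share with WS on the mutant side was 66.8% to 83.4% and that on the Col-0 side 6.43% to 12.9% over the settings that kept the placement rule. Placing WS by its mean gave 83.2% and 16.8%, and a stricter rule, with every WS array well inside its side, gave 58.2% and 6.63%. No named gene changed direction, and 25 of 28 kept their call in every setting that tested them; AT3G21670 and CLE26 lost it with the 1.5-fold minimum (adjusted p = 0.238 and 0.0688) as well as the poly-A covariate, and AT5G04120 without the trend (adjusted p = 0.0552) among others. With the replicate number as a block 6752 changed. Same-numbered mutant and Col-0 arrays correlated at -0.162 to -0.094 in their deviations from the group means. Such correlations cannot exclude that same-numbered samples shared a culture or batch, and the main fit did not pair them. Of 1092 recomputed list counts 901 stayed within 1.5 times, 155 were smaller and 36 larger. Dim signals limit fold sizes.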

Other observations

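Gene groups not described above were placed by the WS side in the same way. The histone H2B gene HTB11 read 6.04, 6.68 and 5.26 in the mutant, 5.29, 6.36 and 6.49 in WS, and 10.64, 10.60 and 10.47 in Col-0, which put the mutant at -4.58 relative to Col-0 (adjusted p = 1.67e-08) and overlapping with WS. HTB1, another histone H2B gene, was higher than in Col-0 by 1.09 with WS on the mutant side, and 4 of the 6 core histone genes did not pass the test. The 33.3% of core histone genes that changed was near the 28.4% of all genes. Of 7 jacalin lectin and ER body genes 1 was higher and 2 lower than in Col-0 (42.9% of a short list). The jacalin-related lectin gene JAL33 read 10.17, 9.33 and 9.94 in the mutant, 9.43, 9.41 and 9.16 in WS, and 13.26, 13.38 and 13.39 in Col-0. GI, a gene of the circadian clock, was higher by 1.099 (adjusted p = 2.62e-06), at 11.31 to 11.58 in the mutant, 11.12 to 11.41 in WS and 10.17 to 10.47 in Col-0.

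Among 6 CLE peptide genes, CLE41 and CLE44, whose peptides signal in the vascular cambium, were lower in the mutant than in Col-0 by -0.87 and -0.97, with WS on the mutant side. CLE41 read 8.51, 8.24 and 8.17 in the mutant, 7.39, 7.61 and 7.59 in WS, and 9.71, 9.20 and 8.62 in Col-0, and the mutant was higher than WS by 0.78 (adjusted p = 0.0215). CLE27 was higher than in Col-0 by 1.79 and CLE26 is described above. Of 11 auxin response genes 27.3% changed, near the 28.4% of all genes. IAA33 differed by -1.89 and GH3.17 by 0.55, both with WS on the Col-0 side, and IAA30 by 1.18 with WS on the mutant side. Of 29 serine carboxypeptidase-like genes 5 were higher and 3 lower (27.6% changed, against 28.4% of all genes). Of 10 pathogenesis-related and defensin genes 2 were higher and 2 lower (40% of a short list). The lowest adjusted p in limma was 0.0629 among 5 pectin methylesterase genes (ATPMEPCRB, -0.94) and 0.4996 among 4 flavonoid genes (CHIL, 0.37).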
